A study of Equus caballus with 31 samples.

Results

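The genes described here code for the translation initiation factors (eIF) and translation elongation factors (eEF) of the horse, with the binding proteins, the kinase and the methyltransferases that share their symbols. They were chosen by symbol alone: every gene named EIF1 to EIF6 or EEF1 or EEF2 with any ending, leaving out the eIF2 kinases (EIF2AK). This gave 55 genes with a row in both expression tables, out of 16799 symbols that the tables share, and they were sorted into 13 complexes or roles. RNA was sequenced from cells of the joint fluid (synovial fluid, treated with hyaluronidase and pelleted) and from peripheral blood mononuclear cells, in healthy horses and in horses whose osteoarthritis (OA) had arisen naturally. There were 5 OA and 11 healthy fluid libraries and 6 OA and 9 healthy blood libraries, each from its own horse within a tissue, and 13 horses gave both fluid and blood. Every library is labelled wild type, the labels describe all samples as mixed mononuclear cells, and no label gives an age, a sex, a joint or a batch. Healthy status and OA had been decided by lameness examination, radiographs and the response to a joint block. The comparison asked whether the RNA of the translation machinery differed between OA and healthy horses, in the joint and in the blood.

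Translation starts when the small ribosomal subunit, carrying eIF1, eIF1A, eIF3, eIF5 and the initiator tRNA bound to eIF2, is recruited to the capped end of a messenger RNA by the eIF4 factors. It scans to the start codon, the large subunit joins with the help of eIF5B, and the elongation factors eEF1 and eEF2 then deliver each aminoacyl-tRNA and move the ribosome by a codon. Cells adjust this machinery mainly through eIF2 phosphorylation, which limits the exchange factor eIF2B, and through the eIF4E-binding proteins, which hold eIF4E away from eIF4G until the kinase mTORC1 releases it. Neither phosphorylation nor protein level was measured here. RNA levels of the factors are all that the following values describe.

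Values are normalised read counts: whole reads divided by a size factor for each library, scaled separately in fluid and in blood, so that levels are not compared between tissues or, lacking gene lengths, between genes. The depth of the fluid libraries was 25.9 to 36.3 M (M, megareads). Blood libraries had 23.9 to 34.8 M, deeper in OA (31.7 to 34.8 M) than in healthy horses (23.9 to 32.2 M). Changes are differences of log2(value + 1), OA minus healthy, from limma fitted to all genes with a mean of at least 10, and a gene was called at a Benjamini-Hochberg adjusted p under 0.05 over all genes tested. All 55 factors passed the minimum in both tissues. In bulk samples, fewer cells of a type and less RNA per cell cannot be told apart. Leukocyte genes (PTPRC, CD53, CORO1A and LCP1) were present in every library, which does not tell mononuclear cells from other leukocytes. The fluid also held genes of synovial fibroblasts. By Dixon's test for a library far from the rest, run on values without logs, the fluid of OA_1038 stood apart from the other OA fluids in 11 factors. The counts are given with and without OA_1038.

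In OA fluid, 20 of the 55 factors rose and 1, EIF1B, fell. Over all 13885 genes tested, 14.4% were called higher and 13.6% lower. The median log2 change of the 55 factors was 0.38, against 0.08 over all genes. Of the 55 changes 46 were above 0 (37 with libraries scaled to equal totals), where 53.8% of all genes were above 0. Most changes were moderate: of the called genes only EEF1AKMT3 and EIF4EBP1 changed by 1 or more on the log2 scale. In blood, none rose and 1, again EIF1B, fell, where 3.2% of 13072 genes were called higher and 2.2% lower. Of the 55 changes there 42 were below 0, where 48% of all genes were, and their median was -0.11 against 0.02 over all genes. At an unadjusted p under 0.05, 1 factor was higher and 9 were lower in blood by limma. The share of all genes at that level was not computed, so these counts cannot be set against a background. Called in blood by edgeR's quasi-likelihood test were 0 higher and 1 lower, where 3.86% of all genes were called higher and 2.31% lower. DESeq2 called 0 higher and 5 lower (EEF1D, EIF1B, EIF3I, EIF4E and EIF4E2), where it called 7.15% of all genes higher and 5.74% lower.

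The fluid count depends on how libraries are scaled. The deposited scaling leaves OA fluids with larger summed values (30.3 to 36.1 M) than healthy fluids (26.7 to 32.6 M), and scaling to equal totals gave 6 factors higher (EEF1AKMT3, EIF3E, EIF3M, EIF4A1, EIF4EBP1 and EIF4G1) and 3 lower (EIF1B, EIF2B2 and EIF2B5). Under it the all-gene median went from 0.08 to -0.12, and the split of all calls from 2006 higher and 1893 lower to 1302 higher and 2767 lower (9.39% and 19.9% of genes). Relative to the median of all genes, the factors' median stood at 0.30 under both scalings. Rescaling moves all genes of a library nearly alike, so this distance could hardly change and is no test of the rise. In raw terms, the 55 factors took 1.54 to 3.60% of all reads in OA fluids (median 1.96%) and 1.46 to 1.91% in healthy fluids (median 1.64%). The 3.60% was that of OA_1038, where EEF1A1, a gene not called, took 1.217% of reads alone. OA_2615, OA_3850, OA_9350 and OA_9570 had 1.965, 1.958, 1.787 and 1.541%, within or close to the healthy range.

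**Figure D1:**
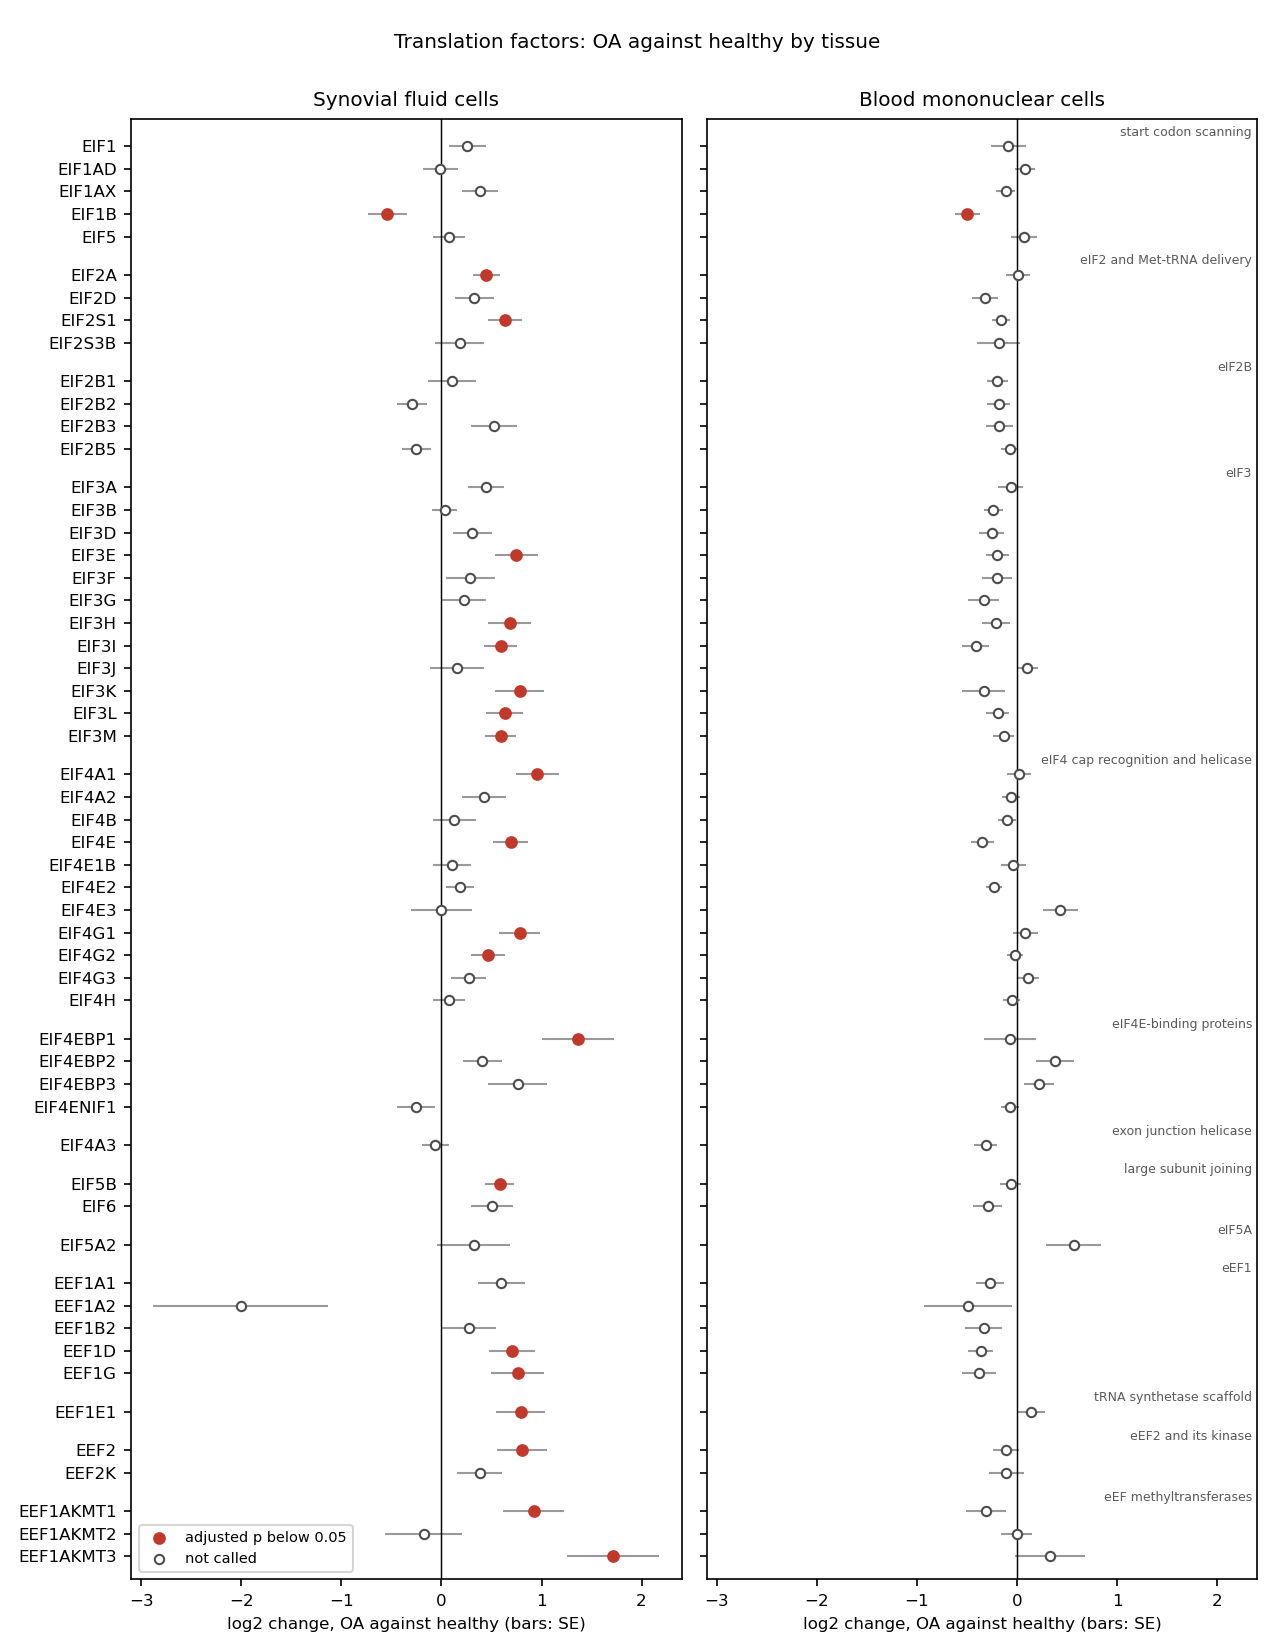
Log2 change of each of the 55 translation factor genes, OA against healthy, in synovial fluid cells (left) and blood mononuclear cells (right), grouped by complex. Points are limma estimates, bars their standard errors, and filled points were called at an adjusted p under 0.05: 21 in fluid, and EIF1B alone in blood.

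The cap-binding complex held the fluid change of smallest p. eIF4F joins the cap-binding protein eIF4E, the scaffold eIF4G and the RNA helicase eIF4A, and 4 of the 11 genes of this group rose in OA fluid. EIF4A1 (chr11:50886533-50892613 on EquCab3.0), which codes for the main helicase, stood at 17970, 23790, 22880, 32770 and 22530 in OA horses OA_1038, OA_2615, OA_3850, OA_9350 and OA_9570. Healthy fluids ran from 6852 through a median of 12930 to 19890, so that 4 of the 5 OA values lay above every healthy one. The change was 0.96 (SE 0.21, adjusted p = 0.00475), with group means of 23990 ± 5402 (SD, n = 5) and 12570 ± 3551 (SD, n = 11). EIF4A2, the second helicase gene, had a change of 0.43 (SE 0.22) and was not called.

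EIF4E (chr3:41220644-41256814) codes for the protein that recognises the cap. Its values in the same order of OA horses were 2173, 2534, 2263, 2180 and 1117, against 996.1 to 1551 in healthy fluids (median 1229). OA_9570 lay inside the healthy range and the other 4 OA fluids above it, for a change of 0.69 (SE 0.18, adjusted p = 0.00892). Among the cap-binding paralogues, the change was 0.18 for EIF4E2, whose protein binds the cap weakly and is known as a repressor, and 0.00 for EIF4E3, neither called. EIF4E1B, known in mouse as an oocyte form, was detected in every library, at 3250 to 7815 in healthy fluid and 4577 to 6691 in OA fluid, with a change of 0.10.

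EIF4G1 (chr19:24991442-25010249), the scaffold that bridges cap and ribosome, read 9891, 13310, 16130, 22560 and 19390 in OA fluids. The healthy fluids ran from 6634 to 12300 with a median of 9025, so only OA_1038 fell within their range. The change was 0.78 (SE 0.20, adjusted p = 0.0102). EIF4G2, a related protein without the eIF4E site that serves initiation not driven by the cap, rose by 0.46 (SE 0.17, adjusted p = 0.0495), just inside the threshold. It was called in 1 of the 16 fits that each left out a fluid library, with adjusted p from 0.00336 to 0.134. EIF4G3 (0.27), and the helicase helpers EIF4B (0.13) and EIF4H (0.08), were not called.

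Of the eIF4E-binding proteins, which compete with eIF4G for eIF4E, EIF4EBP1 rose and the other 3 of 4 were not called. EIF4EBP1 (chr27:7664711-7686825) gave 917.8, 512.6, 1182, 963.2 and 960.8 in OA fluids and 165.1 to 820.2 in healthy fluids (median 352.1). All OA values except that of OA_2615 were above the healthy range, for a change of 1.36 (SE 0.36, adjusted p = 0.0109). EIF4EBP2 and EIF4EBP3 had changes of 0.41 (adjusted p = 0.122) and 0.76 (adjusted p = 0.0615). EIF4ENIF1, the shuttling protein that brings eIF4E to the nucleus and to processing bodies, had a change of -0.25.

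**Figure D2:**
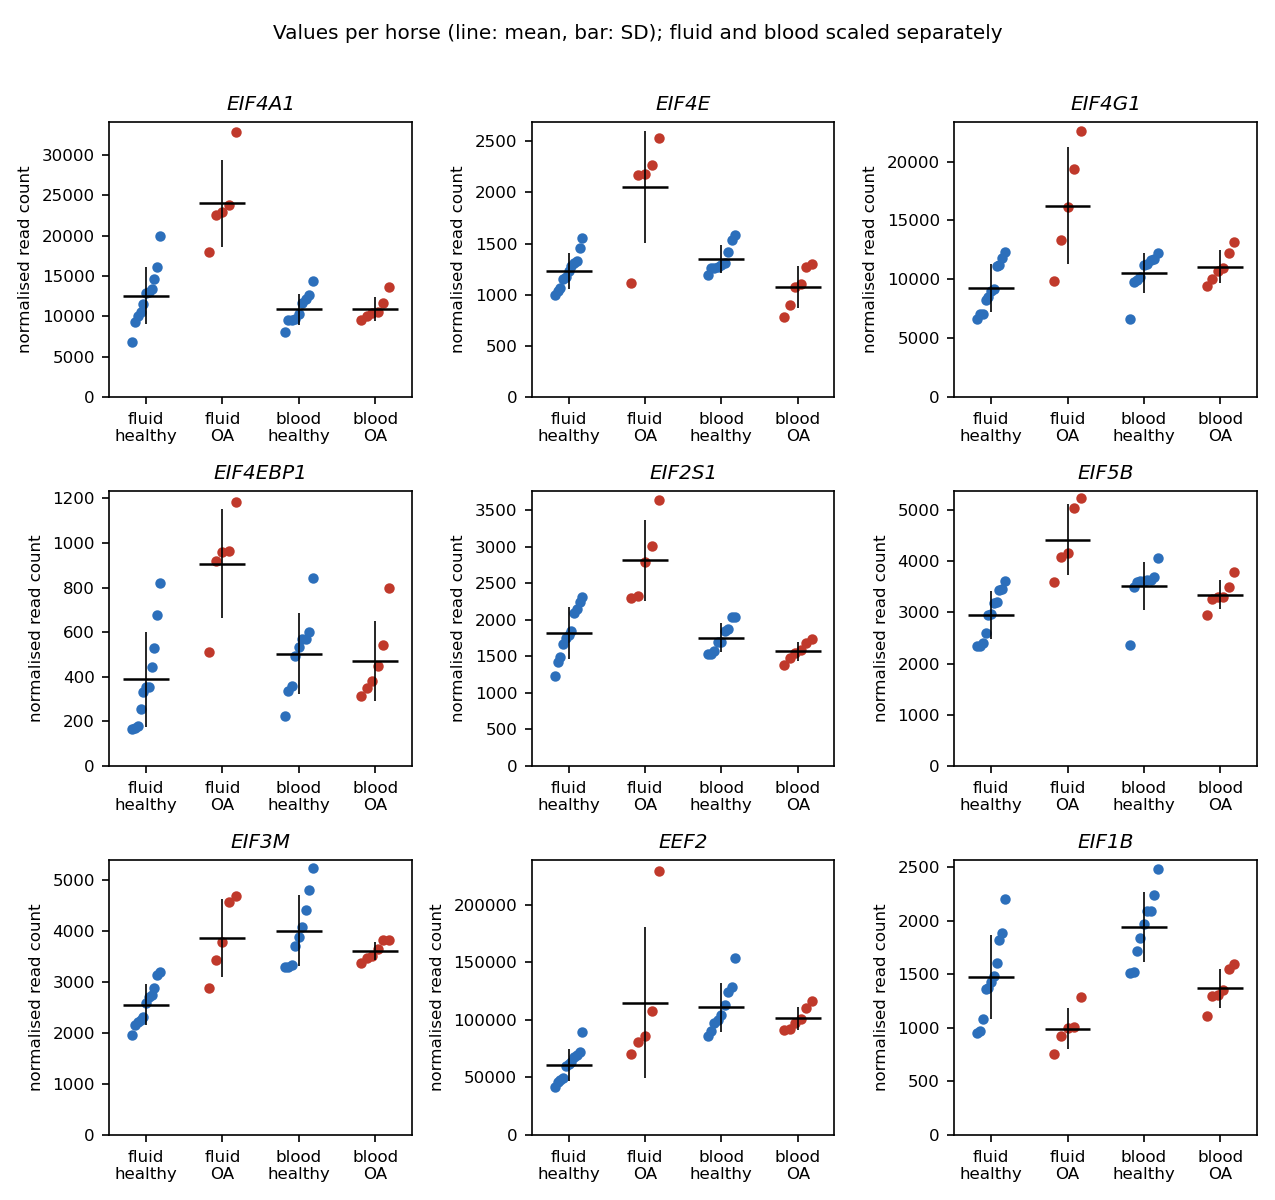
Normalised read counts of 9 factors in every library, with the group mean (line) and SD (bar), healthy in blue and OA in red. In fluid the OA points of EIF4A1, EIF4E, EIF4G1, EIF4EBP1, EIF2S1, EIF5B and EIF3M lie mostly above the healthy points, EEF2 is led by a single OA fluid, and EIF1B is lower in OA in both tissues.

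The ratio of a pair of factors within a library does not depend on scaling, and 9 ratios were tested in each tissue by a two-sided exact permutation test, with Benjamini-Hochberg adjustment over all 18. In fluid, log2(EIF4E/EIF4E2) averaged 0.48 ± 0.35 (SD, n = 5) in OA and -0.03 ± 0.27 (SD, n = 11) in healthy horses, a difference of 0.51 (exact p = 0.00687, adjusted p = 0.0432). The ratio of EIF4E to EIF4EBP1 did not pass the exact test in fluid (difference -0.67 ± 0.42 (SE), adjusted p = 0.324): the cap-binding gene and this inhibitor gene were both higher. In blood, log2(EIF4E/EIF4EBP2) ran from -1.99 to -1.38 in OA and from -1.77 to -0.02 in healthy horses, a difference of -0.72 (exact p = 0.00719, adjusted p = 0.0432). The scaffold ratio EIF4G1/EIF4G3 differed by 0.51 in fluid and missed the threshold (exact test, adjusted p = 0.0511). The helicase ratio EIF4A1/EIF4A2 differed by 0.53 ± 0.31 (SE) in fluid (exact test, adjusted p = 0.324) and by 0.08 ± 0.15 (SE) in blood (adjusted p = 0.734).

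The called ratios sit close to the threshold. Leaving out each library in turn, the EIF4E/EIF4EBP2 ratio in blood stayed between -0.82 and -0.60 and was called in 5 of 15 fits, with adjusted p up to 0.0737 by the exact test. The EIF4E/EIF4E2 ratio in fluid stayed between 0.43 and 0.65 and was called in 6 of 16. The OA_9570 fluid had the lowest EIF4E/EIF4E2 ratio of the OA fluids, at -0.08, while the other 4 ran from 0.37 to 0.78. The ratio of the widespread EEF1A1 to EEF1A2, the muscle and nerve form of the same elongation factor, was also called in fluid (difference 2.61, exact p = 0.00504, adjusted p = 0.0432). It rests on low values of EEF1A2, which had no read in OA_2615 and at most 85.01 normalised reads in an OA fluid, so its size moves with the pseudocount: with 10 in place of 1 the difference was 1.88. Leaving out each library in turn, it stayed between 1.49 (without OA_2615) and 3.13 and was called in 7 of 16 fits, with adjusted p up to 0.132 by the exact test.

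**Figure D3:**
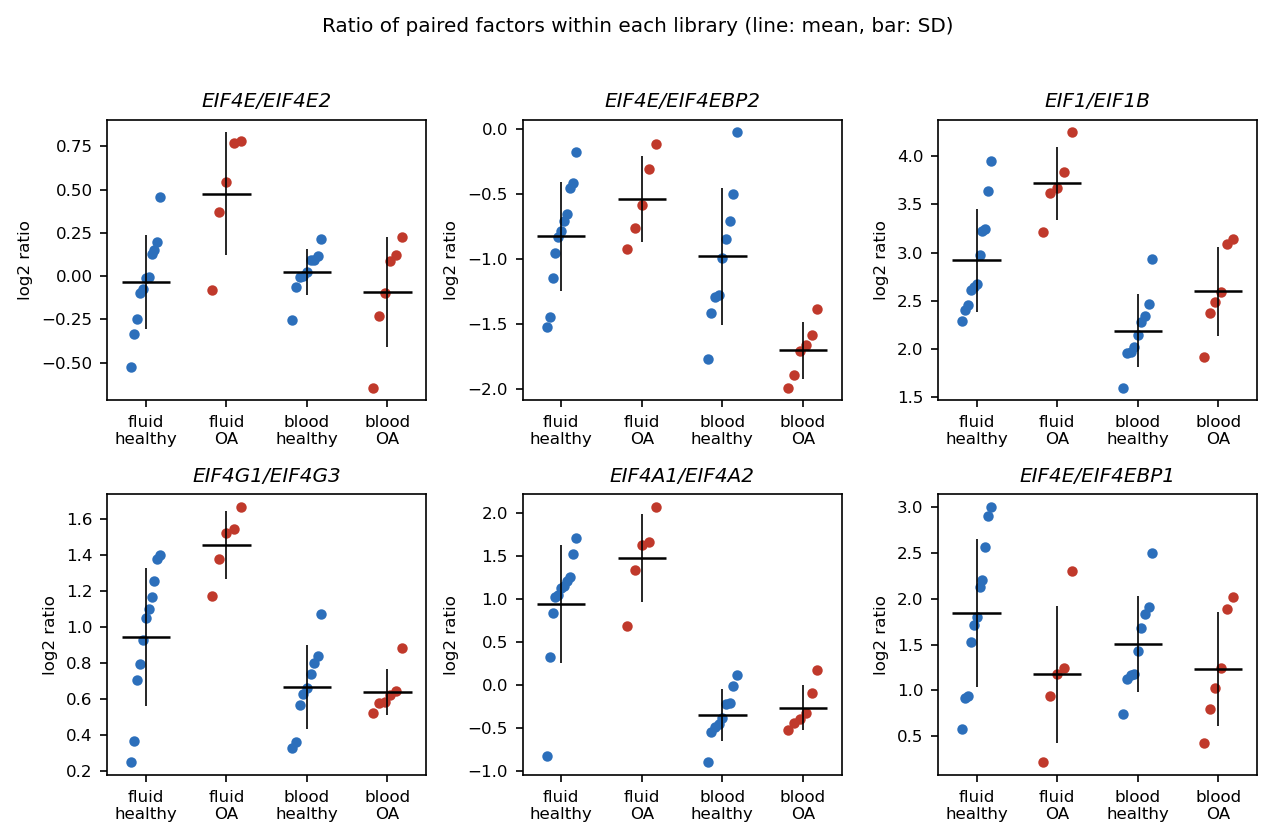
Log2 ratio of 6 pairs of factors within each library, with the group mean (line) and SD (bar), healthy in blue and OA in red. The EIF4E/EIF4E2 ratio is higher in OA fluid and the EIF4E/EIF4EBP2 ratio lower in OA blood; the other 4 pairs shown were not called in either tissue.

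eIF3, the large scaffold on the small ribosomal subunit, had 12 measured subunits, all with a fluid change above 0 (10 of 12 with equal totals), and 6 of them rose (2 with equal totals). EIF3M (chr7:100464785-100522200) stood at 4690, 3793, 3432, 4573 and 2886 in OA fluids and at 1962 to 3192 in healthy fluids (median 2593). Only OA_9570 lay within the healthy range; the change was 0.59 (SE 0.15, adjusted p = 0.01). EIF3I, a propeller-shaped subunit of the complex's periphery, read 6990, 5169, 5124, 6019 and 5012 against 3036 to 5770 (median 3478), so that 2 of 5 OA values exceeded all healthy ones. Its change was also 0.59 (SE 0.16, adjusted p = 0.0139).

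EIF3E read 20740, 10360, 7651, 7666 and 7690 in OA fluids and 4826 to 8088 in healthy fluids (median 5762). Here OA_1038 stood far above the rest, 3 OA fluids were inside the healthy range, and the change was 0.75 (SE 0.21, adjusted p = 0.0159). EIF3K, EIF3H and EIF3L also rose, by 0.78, 0.68 and 0.63 (adjusted p = 0.0236, 0.0254 and 0.0179). The 6 subunits that were not called had changes of 0.44 (EIF3A), 0.31 (EIF3D), 0.29 (EIF3F), 0.22 (EIF3G), 0.16 (EIF3J) and 0.03 (EIF3B). EIF3A and EIF3B, which form the core on which the others assemble, were thus not among the called subunits; a difference between subunits was not tested. In blood, 11 of the 12 subunits had changes below 0 (median -0.20) and none was called. EIF3D, the subunit of highest mean there, ran from 13590 through 14920 to 17060 in OA and from 14980 through 17500 to 26820 in healthy blood.

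The other initiation steps changed in part. EIF2S1, the alpha subunit of eIF2 and the site of its regulatory phosphorylation, read 2322, 3012, 2793, 3640 and 2299 in OA fluids against 1230 to 2307 (median 1790) in healthy ones. It rose by 0.63 (SE 0.17, adjusted p = 0.011), with OA_1038 just above the healthy range and OA_9570 just inside it. EIF2A, an alternative carrier of initiator tRNA, read 3572, 3106, 2233, 2892 and 2414 against 1765 to 2518 (median 2060) and rose by 0.45 (SE 0.13, adjusted p = 0.0203), with 3 of 5 OA fluids above all healthy ones. The row named EIF2S3B, which shares 8 of 10 neighbouring genes with the gene RefSeq names EIF2S3 (the gamma subunit), had a change of 0.18, and EIF2D, which can place initiator tRNA without eIF2, one of 0.33. None of the 4 measured subunits of eIF2B, the exchange factor that recharges eIF2, was called: EIF2B3 had a change of 0.52, EIF2B1 0.11, EIF2B5 -0.25 and EIF2B2 -0.29. EIF2B5, the catalytic subunit, read 2964, 2845, 3038, 2497 and 3889 in OA fluids and 2764 to 4760 in healthy fluids (median 3510).

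EIF1B was the only factor called in both tissues, and lower in both. It codes for a close relative of eIF1, the factor that keeps the scanning ribosome from starting at poor start codons. OA fluids stood at 994.2, 1283, 927.6, 1003 and 753.4, and healthy fluids at 950.9 to 2199 with a median of 1430. The groups overlapped, but every OA fluid was below the healthy median, for a change of -0.54 (SE 0.20, adjusted p = 0.0491). In blood, OA horses ran from 1108 through 1331 to 1594 and healthy horses from 1510 through 1966 to 2479. All 6 OA values lay below the healthy median, and the change was -0.49 (SE 0.12, adjusted p = 0.0317).

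Both EIF1B calls sit near the threshold: with each library left out in turn, it was called in 4 of 16 fits in fluid and in 9 of 15 in blood, always with the same sign, and the adjusted p reached 0.112 and 0.0954. In fluid the call held without OA_2615, ORC_188, ORC_202 or ORC_205, and in blood it was lost without OA_3850, OA_9350, OA_9570, ORC_200, ORC_207 or ORC_208. Its paralogue EIF1 had a change of 0.26 in fluid and -0.08 in blood, and the ratio EIF1/EIF1B differed by 0.80 in fluid (exact p = 0.0133, adjusted p = 0.0511) and by 0.41 in blood (exact p = 0.0825, adjusted p = 0.248). The other factors of scanning and start-site choice, EIF1AX (0.38), EIF5 (0.07) and EIF1AD (-0.01), were not called in fluid.

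For subunit joining, EIF5B, the GTPase that brings the large subunit on, read 5224, 3600, 4149, 5041 and 4074 in OA fluids against 2340 to 3609 (median 2977). OA_2615 stood just inside the healthy range and the other 4 above it, for a change of 0.58 (SE 0.15, adjusted p = 0.00879). EIF6, which keeps free large subunits apart, had a change of 0.51 (adjusted p = 0.0796). EIF5A2, a minor form of the hypusine-carrying factor eIF5A, read 453.4, 369.4, 369.6, 311.2 and 80.23 in OA fluids and 101.1 to 337.3 in healthy ones, where OA_9570 was the lowest of all 16 fluids; its change of 0.32 was not called. EIF4A3, a helicase of the exon junction complex and not of initiation, read 4266, 3870, 3712, 4990 and 4224 against 3601 to 5479, with a change of -0.06.

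Of the 5 eEF1 genes 2 rose in OA fluid, with wide spread among the OA horses, and none was called with equal totals. eEF1A carries aminoacyl-tRNA to the ribosome, and eEF1B2, eEF1D and eEF1G make up the complex that exchanges its nucleotide. EEF1D read 5758, 2505, 2895, 3296 and 2304 in OA fluids against 1381 to 2887 (median 1866) in healthy ones and rose by 0.70 (SE 0.23, adjusted p = 0.0288). EEF1G read 113800, 39430, 42320, 44790 and 32540 against 19920 to 44900 (median 29730) and rose by 0.76 (SE 0.26, adjusted p = 0.0387). All 5 OA values of each gene were above the healthy median, but for EEF1G only OA_1038 was above the healthy range. EEF1A1 (429700, 178300, 159200, 165000 and 136100 against 101200 to 180300) had a change of 0.60 (adjusted p = 0.0661), and EEF1B2 one of 0.28 (adjusted p = 0.454). EEF1A2 went the other way at low counts, with a change of -2.01 (SE 0.88, adjusted p = 0.0917) that was not called. All 5 OA values of EEF1A2 were below the healthy median.

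EEF2, the translocase, read 229400, 107300, 86000, 70630 and 80880 in OA fluids against 41970 to 89580 (median 61910) and rose by 0.80 (SE 0.25, adjusted p = 0.0248). Its kinase EEF2K, which switches eEF2 off, had a change of 0.38 and was not called, and the EEF2/EEF2K ratio differed by 0.42 ± 0.46 (SE) (exact test, adjusted p = 0.463). EEF1E1, which despite its symbol is a scaffold of the multi-tRNA synthetase complex, read 396.7, 395.8, 403.5, 581.6 and 206.4 against 157.1 to 311.2 (median 215.8). It rose by 0.79 (SE 0.24, adjusted p = 0.022), with OA_9570 inside the healthy range.

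The largest called change belonged to a gene for a lysine methyltransferase of eEF1A. EEF1AKMT3 (chr6:76253852-76260000) read 158.9, 85.44, 60.36, 102.5 and 62.62 in OA fluids and 13.82 to 45.94 (median 24.14) in healthy fluids. It was the only factor whose groups did not overlap, where 1.57% of all genes tested in fluid had every OA value above every healthy value. No factor had every OA fluid below every healthy fluid (1.99% of all genes), and in blood none had its groups apart in either direction (0.612% of all genes above, 0.436% below). The change was 1.72 (SE 0.46, adjusted p = 0.0119) at low counts. EEF1AKMT1, another eEF1A methyltransferase gene, read 635.7, 334.2, 294.4, 310.0 and 143.8 against 110.4 to 244.3 (median 162.4) and rose by 0.92 (SE 0.31, adjusted p = 0.0329), while EEF1AKMT2 had a change of -0.18.

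A single OA fluid weighs heavily on the elongation factors and on several eIF3 subunits. OA_1038 was set apart from the other OA fluids in EEF1A1, EEF1B2, EEF1D, EEF1G, EEF2, EIF3D, EIF3E, EIF3F, EIF3G, EIF3H and EIF4B. In human cells, 9 of the 55 factors are classic products of terminal oligopyrimidine (TOP) messages, whose translation mTORC1 controls together with that of the ribosomal proteins: EEF1A1, EEF1B2, EEF1D, EEF1G, EEF2, EIF3E, EIF3F, EIF3H and EIF4B. This list was drawn up after the values were seen, and all 9 are among the 11 genes just named. A contrast of the 9 with the other factors in OA_1038 is therefore no test of a TOP pattern. The median log2 distance of the 9 from the healthy mean was 1.63 in OA_1038, and 0.46, 0.34, 0.37 and 0.18 in OA_2615, OA_3850, OA_9350 and OA_9570. The other 46 factors had medians of 0.59, 0.30, 0.34, 0.48 and 0.09 in the same horses. Healthy fluids ran from -0.37 to 0.56 for the 9 genes and from -0.09 to 0.12 for the other 46.

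Without OA_1038, 11 factors were called higher in fluid and none lower, where 10.3% of all genes were called higher and 12.6% lower, and the median of the 55 stood at 0.33 against 0.06 over all genes. The 9 TOP factors are all genes in which OA_1038 stood apart, a choice that favours a loss of calls without it. Of these 9, 5 rose in the full comparison (median 0.68) and 1, EIF3E, without OA_1038 (median 0.46). Of the other 46, 15 rose in the full comparison (median 0.36) and 10 without OA_1038 (median 0.30). Without OA_9350, 13 factors were called higher, where 10.6% of all genes were called higher and 10.7% lower. The calls made in every fit that left out a single fluid library numbered 10, those of EEF1AKMT3, EIF2S1, EIF3E, EIF3I, EIF3M, EIF4A1, EIF4E, EIF4EBP1, EIF4G1 and EIF5B, and all 21 called factors kept their sign. Without OA_1038 the calls of EEF1AKMT1, EEF1D, EEF1G, EEF2, EIF2A, EIF3H, EIF3K, EIF3L and EIF4G2 were lost. EEF1G was called in 5 of the 16 fits (without OA_9570, ORC_196, ORC_198, ORC_202 or ORC_208) and EEF1AKMT1 in 11, lost also without OA_2615, OA_3850, OA_9350 or ORC_201. EEF1D, EIF3H and EIF3K were lost also without OA_9350, EEF2 and EIF2A also without OA_2615, and EEF1E1 without OA_2615, OA_3850 or OA_9350.

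**Figure D4:**
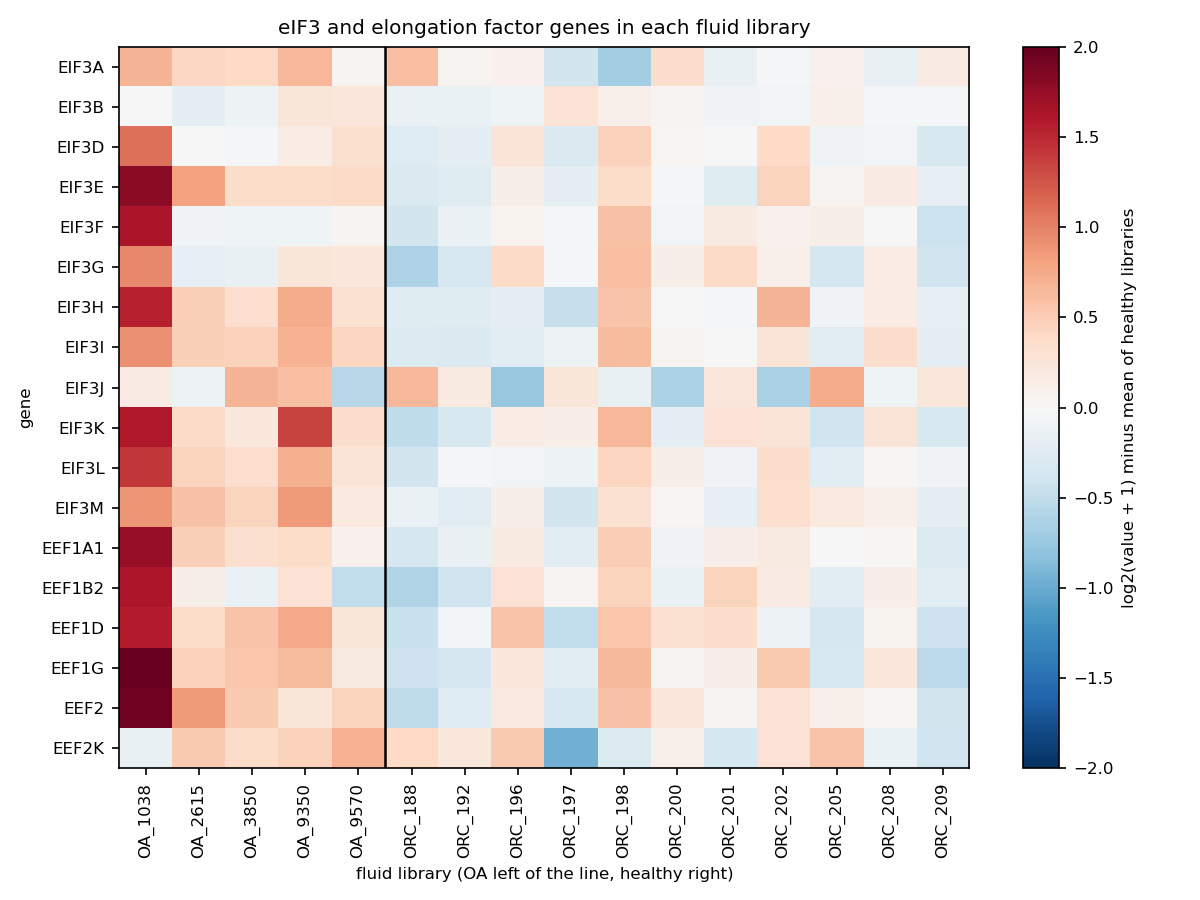
Log2 distance of the eIF3 and elongation factor genes from the mean of the healthy fluids, in each fluid library (columns, OA left of the line). OA_1038 carries the darkest cells, in EEF1G, EEF2, EIF3E, EEF1A1 and EIF3F, while EIF3I and EIF3M are above the healthy mean in all 5 OA fluids. EEF1A2, with a fluid change of -2.01 that was not called, is left out of the plot because it had no read in OA_2615.

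**Figure D5:**
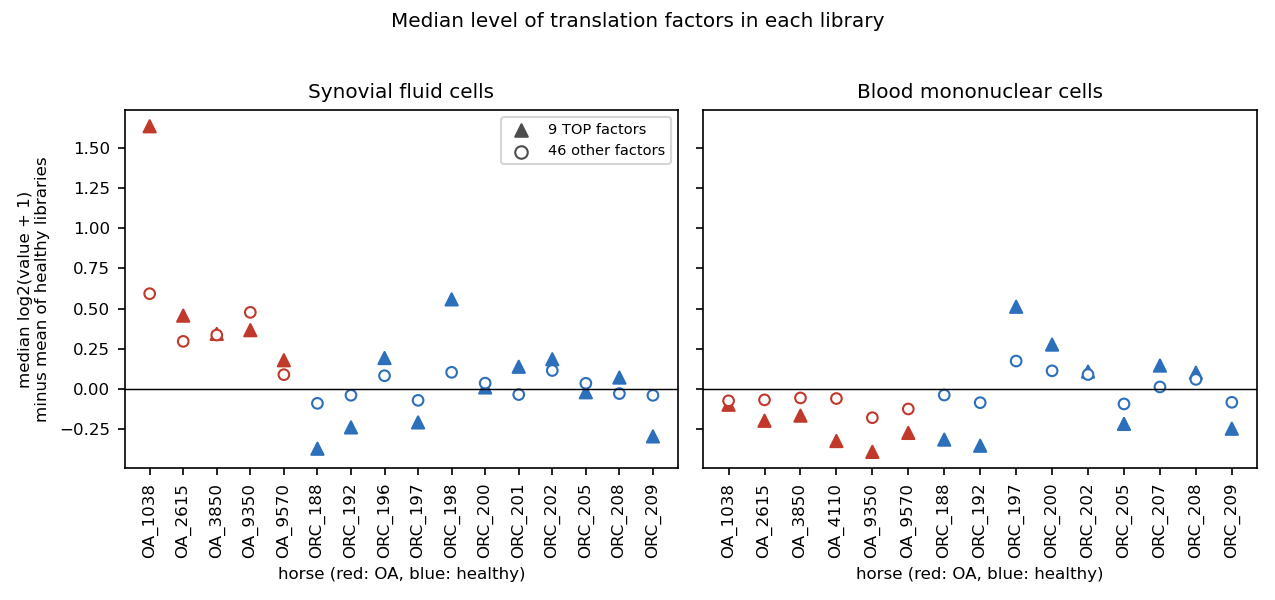
Median log2 distance from the healthy mean of the 9 TOP factors (triangles) and the other 46 factors (circles) in each library of fluid and blood, OA in red and healthy in blue. OA_1038 fluid stands at 1.63 for the TOP factors, which were listed after the values were seen and are all genes in which it stood apart. In blood all 6 OA horses lie below 0, within the range of the healthy horses for the 46 other factors in 4 of the 6.

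The fluid groups also differed in cell markers. Of 13 T cell markers, 12 fell in OA fluid (median log2 change -2.04), and their summed level ran from 8482 to 36900 in OA and from 37080 to 136900 in healthy fluids. Of 9 measured synovial fibroblast markers, 4 rose (median 3.81), and their sum ran from 21330 to 924900 in OA and from 2187 to 204700 in healthy fluids. For resident macrophages 1 of 7 markers rose (sums of 36630 to 455900 against 7958 to 496000), for monocytes 1 of 5 (17120 to 84080 against 7364 to 72610), and for neutrophils none of 3 (2535 to 45500 against 734.8 to 42900). Of 6 B cell markers 1 fell (376.9 to 2093 against 1061 to 38550), of 4 leukocyte markers 1 fell (61390 to 130000 against 88320 to 178300), and of 2 chondrocyte markers 1 rose (45.99 to 1028 against 31.43 to 357.6). No marker was at 0 in all libraries of a tissue, and the part of cell make-up in the factor changes was not tested.

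In blood the factors other than EIF1B were not called, and their values in the groups overlapped. EEF1A1 ran from 163200 through 183700 to 203800 in OA and from 170500 through 232600 to 314600 in healthy blood, and EEF2 from 91350 through 99260 to 116600 and from 86380 through 104300 to 153700. EIF4G2 ran from 30170 through 32180 to 34250 in OA and from 28450 through 33150 to 36910 in healthy blood. EIF4E had a change of -0.34 (SE 0.11, adjusted p = 0.0805) and EIF3I one of -0.41 (SE 0.14, adjusted p = 0.0834), the nearest to the threshold after EIF1B. EIF4EBP2, whose product restrains eIF4E, ran from 2472 through 3485 to 4280 in OA and from 1439 through 2758 to 4064 in healthy blood (change 0.38, adjusted p = 0.225).

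The smaller complexes looked alike in this respect: no called member and overlapping groups. EIF2B5 ran from 3472 through 3703 to 4032 in OA against 2944 through 4038 to 4433, EIF2S3B from 3368 through 3637 to 6276 against 3009 through 4446 to 7455, and EIF5B from 2947 through 3306 to 3778 against 2355 through 3618 to 4070. EIF4A3 ran from 3543 through 3955 to 4734 in OA blood and from 4094 through 5075 to 6737 in healthy blood, with every OA value below the healthy median (change -0.31, adjusted p = 0.105). EIF5A2, at 275.9 through 350.1 to 399.2 against 68.6 through 261.7 to 345.3, had every OA value above the healthy median (change 0.57, adjusted p = 0.209). EEF1E1 (216.8 through 249.9 to 289.8 against 174.6 through 240.0 to 277.4) and EEF1AKMT1 (139.9 through 181.0 to 217.8 against 160.8 through 195.7 to 450.6) completed the roles. Blood monocyte markers were higher in OA, 3 of 5 of them called, with sums of 39560 to 98720 against 16600 to 39450. Of 6 B cell markers 1 fell (sums of 10860 to 48580 against 21170 to 72080), of 6 tested resident macrophage markers 1 rose (3041 to 33020 against 2431 to 6562), and of 2 tested fibroblast markers 1 rose (1072 to 17710 against 43.57 to 3672). That fibroblast marker was FN1, while COL1A1, COL1A2, COL3A1, COL6A3, PDPN, LUM and DCN had means under 10 in blood. The sums cover all rows of a list, tested or not. No marker was called among 13 of T cells (53770 to 113200 against 65290 to 102800), 3 of neutrophils (27390 to 59210 against 5585 to 33050), 4 of leukocytes (127400 to 153900 against 132200 to 150700) and 1 tested of chondrocytes (45.73 to 77.64 against 21.14 to 69.05). The part of these markers' cells in the blood values was not tested.

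The OA change itself differed between fluid and blood for 21 factors, each higher in fluid than in blood, and for none in the other direction. Over 12733 genes tested for this difference, 10.3% were called higher and 11.9% lower. The median difference of the 55 factors was 0.49, against -0.05 over all genes, and 35 of the 55 had a change above 0 in fluid and below 0 in blood. The share of all genes with such opposite signs was not computed, and signs in fluid depend on the scaling. EIF4E showed the smallest p, with a difference of 1.04 (SE 0.21, adjusted p = 0.00153). EIF2S1 (0.79, SE 0.18, adjusted p = 0.00335), EIF3I (1.01, SE 0.23, adjusted p = 0.00384), EEF1D (1.07, SE 0.26, adjusted p = 0.00538) and EIF3E (0.95, SE 0.23, adjusted p = 0.00563) followed.

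By role, the called differences comprised 6 of 12 eIF3 subunits, 5 of 11 genes of cap recognition and helicase, 3 of 5 eEF1 genes, 2 of 4 genes of eIF2 and initiator tRNA delivery, both genes of subunit joining, and EEF2, EIF4EBP1 and EEF1AKMT1. With the replicate block, which compares fluid and blood within each horse, 21 were again called, where 11.1% of all genes were called higher and 13.1% lower. EIF4G1 and EIF4G2 were then lost, leaving 3 of 11 genes of cap recognition and helicase. EEF1B2 and EIF3G were gained, which made 4 of 5 eEF1 genes and 7 of 12 eIF3 subunits. With equal totals 15 were called, where 6.25% of all genes were called higher and 17.7% lower; the lost ones were both genes of subunit joining (EIF5B and EIF6), EIF2D, EIF4E2, EIF4G1 and EIF4G2. Of the 20 factors higher in fluid, 17 were also called in this difference; EEF1AKMT3, EEF1E1 and EIF2A were not. EIF2D, EIF4E2, EIF6 and EEF1A1 were called in the difference without a call in either tissue. For EIF1B the difference was -0.05 (SE 0.23, adjusted p = 0.913). Without horse OA_1038, 10 differences were called, where 6.38% of all genes were called higher and 10.2% lower.

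Genes that work with the factors were read from lists of the pathway. Of 69 tested cytosolic ribosomal protein genes, 40 rose in OA fluid (median 0.79; 24 and 0.59 with equal totals), none was called in blood (median -0.35), and 55 were called higher in the difference. The median log2 distance of these genes from the healthy mean was 1.645 in OA_1038 and 1.351 in OA_9350. In OA_2615, OA_3850 and OA_9570 it was 0.33, 0.35 and 0.21, within the range of healthy fluids (-0.44 to 0.71). RPL22L1, a paralogue of a large-subunit protein, rose by 1.55 in fluid (adjusted p = 0.00122). Of 22 genes of cytosolic tRNA synthetases and their scaffolds, 12 rose and 1 fell in fluid (4 and 1 with equal totals): the scaffold gene AIMP1 rose by 0.83 (adjusted p = 0.00325) and LARS1, the leucine enzyme, by 0.73 (adjusted p = 0.00739). WARS1, the tryptophan enzyme known to be induced by interferon gamma, fell by 1.52 in fluid (adjusted p = 0.00114) and by 0.56 in blood (adjusted p = 0.0221), the opposite direction to its class in fluid.

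Hypusine, the modified lysine of eIF5A, is made from the polyamine spermidine. Of 6 genes of hypusine and polyamine synthesis 4 rose in OA fluid (2 with equal totals). Among them were the spermidine synthase gene SRM (1.23, adjusted p = 0.0021) and the hypusine enzymes DHPS (0.69, adjusted p = 0.00506) and DOHH (0.80, adjusted p = 0.0213). AMD1, which supplies the aminopropyl donor, fell in blood (-0.30, adjusted p = 0.0365, and 0.0643 with equal totals). With equal totals the DOHH call was also lost (adjusted p = 0.0524). Of 9 genes of termination and recycling 3 rose (1 rose and 1 fell with equal totals), GSPT1, ETF1 and MCTS1, by 0.82, 0.58 and 0.65 (adjusted p = 0.00492, 0.0388 and 0.0315); the ETF1 and MCTS1 calls were lost with equal totals. Of 8 genes of poly(A) and message binding 2 rose, PABPC4 by 1.05 (adjusted p = 0.00654) and TPT1 by 0.88 (adjusted p = 0.0131); with equal totals both were called and PDCD4 was called lower.

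The signalling genes above the factors did not move as a block. In the integrated stress response list, 1 of 12 tested genes rose in fluid and 1 fell (1 and 2 with equal totals, which added EIF2AK1 as lower). EIF2AK4, which codes for the amino-acid-sensing eIF2 kinase, fell by 0.84 (adjusted p = 0.00728), and NUPR1, a stress-induced nuclear protein, rose by 2.52 (adjusted p = 0.0105). NUPR1 varied widely among OA fluids, at 1758 ± 2504 (SD, n = 5) against 175 ± 138.6 (SD, n = 11) in healthy fluids. In the mTORC1 and MNK list, 1 of 11 rose and 3 fell. MKNK2, a kinase of eIF4E, fell by 0.91 (adjusted p = 0.00791), RPS6KB1, a kinase of ribosomal protein S6, fell by 0.78 (adjusted p = 0.0144), and DEPTOR, an mTOR inhibitor, rose by 1.82 (adjusted p = 0.0154). Of 8 mitochondrial translation factors, 1 rose (MRRF, 0.93, adjusted p = 0.0391) and 2 fell in fluid (MTIF2, -0.78, adjusted p = 0.00651, and GFM2, -0.68, adjusted p = 0.0157). With equal totals none of these 8 was called higher and 3 were called lower: the MRRF call was lost (adjusted p = 0.104) and MTRF1L was added.

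Some rows carry limits of annotation. In the coordinates deposited with the blood table, on EquCab3.0, the spans of 17 factors overlap another listed gene. EEF2, whose span is 303001 bases (chr7:2661099-2964099), overlaps 11 other genes, more than any other factor; EIF3B overlaps 4, EIF3L 3 and EIF1 2. The other 13, among them EIF3I, EIF3K, EIF3M, EIF2A, EIF5B and EEF1E1, overlap 1 each. The strand setting of the counting is not given in the sources used here, and genes such as EEF1A1 have near-identical copies elsewhere in mammalian genomes, so values of these rows are uncertain to that extent. EIF5A, EIF2S2, EIF2B4 and EIF3C were not analysed here.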

How the data were processed

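Poly(A)-selected RNA from synovial fluid cell pellets and peripheral blood mononuclear cells was sequenced with TruSeq libraries, per the labels' protocols. The submitters' processing notes name Partek, cutadapt, STAR 2.7.3, HTSeq, DESeq and the genome build EquCab3.0 without roles or settings. The deposited values are normalised counts (a signal scaled by 1 size factor for each library, separately in each of 2 tables). Whole reads were recovered from them for 99.87 to 99.98% of values (within 0.1 of a whole number), which gave the depths and the count-based alternatives. All 31 libraries and all columns of the tables were mapped by title, and 0 columns were left unused.

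log2(value + 1) was fitted with limma 3.58.1 (R 4.3.3; trend and robust options) in each tissue, for genes with a mean of at least 10, and in 1 fit of 4 group means with a variance for each tissue to test the difference between tissues. Ratios were tested by exact permutation (Python 3.11.15). edgeR 4.0.16, DESeq2 1.42.0, other pseudocounts, filters and scalings, weights per library, thinning, the replicate block and leaving out libraries served as alternatives. Fits were tested on simulated data. Fluid and blood of the same horse number deviated together in 13 of 13 horses (correlation 0.12 to 0.39), the number being the horse named in the labels. In the tests within 1 tissue, p-values measure the spread between these horses. The main test of the difference between tissues took all libraries as independent, although 13 horses gave both fluid and blood. Only the replicate block compared the tissues within a horse. The members and gene lists were chosen with earlier results of these data known. Every factor may be named; values in each library are given for up to 3 called factors of smallest p in each complex, or else the one of highest mean, and of other lists up to 3 called genes. EEF1A1 and the values of uncalled factors named beside them are additions chosen after values were seen.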

Additional observations from a re-analysis of the deposited data

Results flagged for a closer look

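Dixon's test for a library far from the rest was run on the OA fluids, OA bloods and healthy bloods of each factor. Of these 165 groups 26 had one. The 11 healthy fluids were not screened, so a healthy fluid far from the rest would not have been flagged. The test used normalised counts without logs, unlike the fits. Its chance rate of about 1 in 20 holds for independent normal groups. The factors share the same libraries, so the 26 cannot be set against that rate. Of the 26, 11 were the fluid of OA_1038. It stood above the other 4 OA fluids in EEF1A1 (429700 against 136100 to 178300), EEF1B2 (82430 against 19050 to 32500), EEF1D (5758 against 2304 to 3296), EEF1G (113800 against 32540 to 44790) and EEF2 (229400 against 70630 to 107300). The same held for EIF3D (22730), EIF3E (20740), EIF3F (36140), EIF3G (16810), EIF3H (14770) and EIF4B (33080). The fluid of OA_9350 was high in EIF1 (19080 against 10800 to 12710) and EIF4EBP3 (538.4 against 267.6 to 344.2), and that of OA_9570 low in EIF4E (1117 against 2173 to 2534).

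In healthy blood, ORC_202 stood apart in 6 factors: EEF1AKMT1 (450.6) and EIF4E3 (1201) were higher than in the other 8 horses, and EIF2B5 (2944), EIF4ENIF1 (1159), EIF4G1 (6642) and EIF5B (2355) lower. ORC_197 was high in EIF3G (26750) and low in EIF5 (4067) and EIF5A2 (68.6). Among the OA bloods, OA_1038 was low in EIF2B2 (1098) and high in EIF2D (1138), and OA_3850 was high in EIF4H (11600).

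For 21 factors the OA change differed between fluid and blood by the test of the difference itself (limma, adjusted p under 0.05), as log2 change in fluid minus that in blood. In eIF3 it was 0.95 for EIF3E, 0.89 for EIF3H, 1.01 for EIF3I, 1.11 for EIF3K, 0.82 for EIF3L and 0.72 for EIF3M. In the eIF4 group it was 0.94 for EIF4A1, 1.04 for EIF4E, 0.42 for EIF4E2, 0.70 for EIF4G1, 0.49 for EIF4G2 and 1.44 for EIF4EBP1. The other initiation factors stood at 0.79 (EIF2S1), 0.65 (EIF2D), 0.65 (EIF5B) and 0.80 (EIF6). The elongation factors and their methyltransferase stood at 0.87 (EEF1A1), 1.07 (EEF1D), 1.15 (EEF1G), 0.91 (EEF2) and 1.23 (EEF1AKMT1).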

How the results depend on the processing

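No called factor changed sign under any alternative. In fluid, the 20 factors called higher (14.4% of all genes) numbered 6 with scaling to equal totals (9.39%) and 19 to 26 under the other settings. The 26 came with weights per library, where 26.3% of all genes were called higher. Leaving out each library gave 11 to 23, the lowest without OA_1038 (10.3% of all genes) and the highest without OA_9570 (18.5%). The 1 called lower numbered 0 without a filter on low values (10.2% of all genes called lower) and without horses OA_9570 and ORC_202 (16.8%). It numbered 2 with weights per library (21.5%), 3 with equal totals (19.9%), and 0 to 1 with a library left out (9.37 to 15.6%). In blood, weights per library gave 1 higher and 2 lower (10.5% and 7.21% of all genes) and DESeq2 5 lower (5.74%). Leaving out a library gave 0 to 1 higher and 0 to 2 lower, where 0.107 to 5.28% of all genes were called higher and 0.13 to 3.97% lower. The difference between tissues gave 10 to 24 higher with a horse left out, where 6.36 to 12.04% of all genes were called higher. With equal totals it gave 15, where 6.25% of all genes were. With the replicate block (within-horse differences, 5 OA and 8 healthy horses) 21 were called: EIF4G1 and EIF4G2 were lost (adjusted p = 0.0722 and 0.0896), EEF1B2 and EIF3G gained. Called ratios numbered 0 to 3 in fluid and 0 to 1 in blood with a library left out. Apart from leaving out libraries and changing the scaling, whose construction alters the samples or the median, the cause of these moves was not tested. Thinning to equal depth left each of the 55 factors on its side of the threshold in both tissues. EEF1AKMT3 was not tested at a mean of at least 50.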
